A study of Mus musculus with 2 samples.

Results

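Apelin-positive endothelium of the newborn mouse heart was compared with apelin-negative endothelium of the same hearts. The rule for endothelium was applied to single-cell RNA profiles and kept 690 of 11935 cell barcodes, 350 in technical replicate 1 and 340 in technical replicate 2. It asked for at least 500 detected genes, under 0.5% of counts from 4 haemoglobin genes and under 0.3% from Myl2 and Myl7. It also asked for at least 1 count of Pecam1 or Cdh5, at least 4 counts over Fabp4, Gpihbp1, Cldn5 and Rgcc, and at most 2 counts over Npr3, Tmem108, Foxc1 and Nrg1, which mark endocardium. Barcodes with 2 or more counts of Apln were Apln-positive, and there were 239 of them (112 and 127 in the replicates). Barcodes with 0 Apln counts were Apln-negative, and there were 330 (179 and 151). The 121 barcodes with 1 Apln count belonged to neither group. The members were thus chosen by their own counts of Apln and of the other rule genes, so the levels of those genes are description only and were left out of every count of genes.

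The hearts were whole hearts at postnatal day 0 (P0), of the background C57BL6 and ICR, with no genotype, treatment or sorting named. They were minced, digested in trypsin and loaded on the 10x Chromium platform, which tags the 3' ends of polyadenylated RNA from single cells. Both libraries are technical replicates of 1 biological sample, so there was no test between groups, and how many animals were pooled is not given in the sources used here. The 2 replicates held 34668956 and 33871582 counts and shared 53 barcode sequences, none of them in the endothelium.

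Apelin is a secreted peptide that signals through the receptor Aplnr on endothelial cells. In growing vessel beds, such as the mouse retina, Apln marks the tip cells that lead a sprout, along with Esm1 and a high level of the vascular endothelial growth factor (VEGF) receptor Kdr. Stalk cells behind the tip are held back by Notch signalling from tip cells, and in the developing heart the capillary plexus also feeds growing coronary arteries. Adrenomedullin (Adm) is another secreted vascular peptide that tip cells are known to express.

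The promoters of the selecting gene and of the gene with the highest ratio are shown because the results below turn on both. They are the 300 bases from 250 before to 50 after the RefSeq gene start in GRCm38.p6, and capitals mark the core of the hypoxia response element (ACGTG or GCGTG, searched on both strands).
Apln (chrX:48034804-48035103, - strand): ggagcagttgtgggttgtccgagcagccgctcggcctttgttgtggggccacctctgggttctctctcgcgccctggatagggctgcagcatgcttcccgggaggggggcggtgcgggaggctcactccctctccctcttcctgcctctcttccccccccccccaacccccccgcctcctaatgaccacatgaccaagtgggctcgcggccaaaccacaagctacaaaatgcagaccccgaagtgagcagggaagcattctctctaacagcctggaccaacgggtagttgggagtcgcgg
Adm (chr7:110627407-110627706, + strand): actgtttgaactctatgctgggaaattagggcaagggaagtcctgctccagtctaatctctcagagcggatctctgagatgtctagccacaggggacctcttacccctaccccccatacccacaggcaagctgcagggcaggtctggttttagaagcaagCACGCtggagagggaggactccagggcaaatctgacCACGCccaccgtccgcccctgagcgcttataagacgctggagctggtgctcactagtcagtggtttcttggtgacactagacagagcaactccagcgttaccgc
The Adm window held 2 copies and the Apln window held none. The core was found in 12628 of 27025 genes with such a window (46.7%), in 23 of 34 genes higher in Apln-positive barcodes that had one (67.6%) and in 35 of 58 lower genes (60.3%). The 27025 genes include genes too low in these barcodes to be compared. The share over the compared genes alone was not computed.

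A second set of windows is shown because genes of DNA replication were prominent among the higher genes. The core of an E2F element, TTCCCGC or its reverse complement GCGGGAA, stood in 10 of the 34 higher genes with a promoter window (29.4%), in 1 of the 58 lower genes (1.72%) and in 1429 of 27025 genes in all (5.29%). The first copy in each of the 10 genes follows in capitals with up to 17 bases on either side, in GRCm38.p6 and on the strand of the gene.
Mpp6 (chr6:50110009-50110049, + strand): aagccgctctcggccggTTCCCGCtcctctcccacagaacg
Cenps (chr4:149137551-149137591, - strand): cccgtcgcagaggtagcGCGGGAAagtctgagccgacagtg
Hells (chr19:38930912-38930952, + strand): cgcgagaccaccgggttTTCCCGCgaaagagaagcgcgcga
Ncapg2 (chr12:116405186-116405210, + strand): gGCGGGAAacacagccagcagctct
Chaf1a (chr17:56040352-56040392, + strand): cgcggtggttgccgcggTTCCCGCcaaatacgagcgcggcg
Pold1 (chr7:44548766-44548793, - strand): cggcggcgtatcttgtgGCGGGAAaagc
Cnot9 (chr1:74505810-74505834, + strand): gGCGGGAActatgactacacgcaaa
E2f7 (chr10:110745199-110745239, + strand): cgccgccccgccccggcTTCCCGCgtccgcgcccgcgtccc
Usp37 (chr1:74505794-74505834, - strand): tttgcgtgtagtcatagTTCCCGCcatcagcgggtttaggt
Chaf1b (chr16:93883657-93883697, + strand): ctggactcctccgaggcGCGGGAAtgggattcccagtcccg
Cnot9 and Usp37 lie head to head, and their windows hold the same copy read from opposite strands. The share over all genes again includes genes too low to be compared here. A match to a motif describes these letters only. The genes of this set were chosen for the match after their values were seen. Of the higher genes of DNA replication named below, Mcm2, Mcm6, Tipin, Lig1 and Fam111a are not among the 10.

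Library depth differed between the groups before any gene was compared. Apln-positive barcodes had a median of 17115.0 and 14864.0 counts in replicates 1 and 2, against 6449.0 and 5415.0 counts in Apln-negative barcodes. Median detected genes were 4298.0 in Apln-positive and 2428.5 in Apln-negative barcodes over both replicates. Mitochondrial genes made up a median 3.71% of counts in Apln-positive and 4.03% in Apln-negative barcodes, which did not separate the groups.

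The Apln-positive share of the endothelium was 34.6% (exact 95% binomial interval 31.1 to 38.3), and 32.0% and 37.4% in the replicates. It followed depth. With the 690 barcodes ordered by depth and cut into 5 equal classes of 138, the share was 8.70%, 14.5%, 32.6%, 51.4% and 65.9% from the shallowest class to the deepest. The Apln level over the summed counts of the same classes lay between 112 and 162 CPM, which are counts scaled to one shared total. For a shallow barcode without Apln counts, absence of Apln RNA and failure to capture it cannot be told apart. In Apln-positive barcodes the Apln level was 264 CPM, which the choice by Apln counts sets in part. Over all 690 endothelial barcodes it was 150 CPM, against 14.97 CPM in 280 endocardial barcodes and 1.76 CPM in 1899 cardiomyocyte barcodes. In cardiomyocyte barcodes, 19 of 1899 (1.00%) had any Apln count at a median depth of 5212.0 counts.

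**Figure D1:**
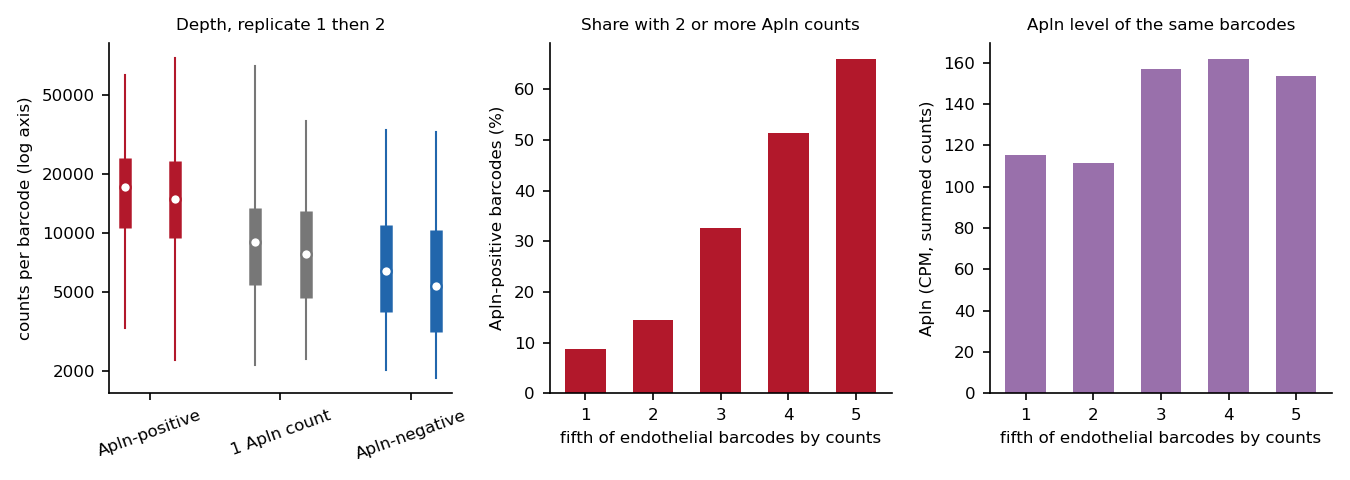
Depth and Apln detection in 690 endothelial barcodes of P0 hearts. Left, counts per barcode on a log axis for Apln-positive barcodes, barcodes with 1 Apln count and Apln-negative barcodes in technical replicates 1 and 2 (point, median; box, middle 50% of barcodes; line, range). Middle, the share of barcodes with 2 or more Apln counts by class of depth, from 8.70% to 65.9%. Right, the Apln level of the same classes in CPM of summed counts, between 112 and 162.

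Levels below are CPM of counts summed over the barcodes of a group in a technical replicate. A gene was measured when the mean of both groups reached 20 CPM in each replicate. It was called higher or lower when the ratio of Apln-positive to Apln-negative was at least 1.5, or at most 1/1.5, in both replicates. Intervals are exact 95% intervals and cover counting error only. Of 5956 measured genes, 39 were called higher (0.655%) and 82 lower (1.38%), and the median log2 ratio of all measured genes was 0.01.

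Each ratio was also computed in 2 comparisons that bring the groups nearer in depth, called comparisons matched for depth here. When Apln-negative barcodes were weighted to the depth of the Apln-positive ones in 5 strata per replicate, 86 of 5801 genes were higher (1.48%) and 83 lower (1.43%). The deepest stratum held 23 and 26 Apln-positive barcodes in the replicates, against only 5 and 2 Apln-negative ones, so weighted values lean on those few barcodes. When only barcodes of 8000 to 24000 counts were used, 75 of 5870 genes were higher (1.28%) and 85 lower (1.45%). That range held 69 and 74 Apln-positive barcodes in the replicates, against 57 and 50 Apln-negative ones. Their median depth was 15177.0 and 14563.0 counts in Apln-positive barcodes, against 12049.0 and 13579.0 counts in Apln-negative ones. A gap in depth thus remained within the range. Of the 39 higher genes, 13 were called in all 3 comparisons, and of the 82 lower genes, 20 were. The range comparison was chosen after the data had been seen. List medians in both comparisons are taken over the members measured as counted.

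The tip-like label was checked first against its other supplied markers. Esm1, a secreted proteoglycan of tip cells, had 11.4 and 15.7 CPM in Apln-positive barcodes, against 2.62 and 11.2 CPM in Apln-negative barcodes. It stayed below the 20 CPM needed to be measured, and its ratio of 2.14 (1.23 to 3.92) was not called. The ratio was 4.33 in replicate 1 and 1.40 in replicate 2. It was 2.44 with weighting to depth and 2.07 in barcodes of 8000 to 24000 counts. Kdr had 837 and 732 CPM in Apln-positive barcodes, against 644 and 649 CPM in Apln-negative barcodes, a ratio of 1.21 (1.14 to 1.29). The Kdr ratio was 1.23 with weighting to depth, but 1.07 in barcodes of 8000 to 24000 counts, outside that interval. Aplnr, the receptor of apelin itself, had 361 and 304 CPM in Apln-positive barcodes, against 356 and 364 CPM in Apln-negative barcodes. Its ratio was 0.925 (0.851 to 1.00), 1.27 with weighting to depth and 0.972 in barcodes of 8000 to 24000 counts. Kdr and Aplnr did not reach the 1.5-fold size, and Esm1 reached it in 1 replicate only and at a low level. The group is therefore named here by its rule, as Apln-positive endothelium, and not as tip cells.

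Across a list of 30 genes known from tip cells, 24 were measured. Of these, 2 were higher and 0 lower, against 0.655% and 1.38% of all measured genes. Of the 24 ratios, 20 were above 1, against 3073 of 5956 over all measured genes. The median log2 ratio of the list was 0.24, against 0.01 for all measured genes. With Apln-negative barcodes weighted to depth the median was 0.16, and in barcodes of 8000 to 24000 counts it was 0.20. The 2 higher genes were Adm and Plaur, which were also called in both comparisons matched for depth. The sulphotransferase gene Chst1 was called higher too with weighting to depth, and the netrin receptor Unc5b was called lower in the common depth range.

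Adm had the highest ratio of all higher genes. The gene lies on chromosome 7, 110627661 to 110629820 on the + strand of GRCm38, and encodes a vasodilator peptide that vessels need to form properly. It had 36.9 and 43.4 CPM in Apln-positive barcodes, against 11.1 and 7.77 CPM in Apln-negative barcodes. These are sums over the barcodes of a replicate, and single barcodes were not compared. The ratio was 4.15 (2.74 to 6.53), and it was 5.63 with weighting to depth and 5.49 in the common depth range. Adm was at 3.29 CPM in endocardial and 31.1 CPM in cardiomyocyte barcodes. The cardiomyocyte marker list summed to 1102 and 1434 CPM in Apln-positive barcodes, against 1636 and 1771 CPM in Apln-negative barcodes.

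Plaur, the receptor of urokinase on the cell surface, had 45.0 and 54.5 CPM in Apln-positive barcodes, against 21.6 and 31.1 CPM in Apln-negative barcodes. Its ratio was 1.94 (1.47 to 2.58) and 2.91 in the common depth range. Plaur was the 1 higher gene among 13 measured proteases, receptors and inhibitors, with 0 lower, against 0.655% and 1.38% of all measured genes.

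The other receptors and ligands of vessel growth were not called, where 0.655% of all measured genes were higher and 1.38% lower. None of 8 measured VEGF and angiopoietin receptors was higher or lower, and their median log2 ratio was 0.15, or -0.04 with weighting to depth. Nrp2, a VEGF co-receptor, came nearest, with 703 and 698 CPM in Apln-positive barcodes, against 497 and 512 CPM in Apln-negative barcodes, a ratio of 1.39 (1.30 to 1.49). Its partner Nrp1 had a ratio of 1.21 and Flt4, the VEGF-C receptor, 1.21. The decoy receptor Flt1 stood at 1.00 (0.930 to 1.08), the angiopoietin receptor Tek at 1.02, its relative Tie1 at 0.936 and the phosphatase Ptprb at 0.851.

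Among the ligands, 4 of 10 were measured and none was called. Egfl7, a matrix protein made by endothelium, had a ratio of 0.983, Vegfa 1.09, the lipase inhibitor Angptl4 0.756 and the lymphatic growth factor Vegfc 0.556. Vegfc had 22.2 and 17.6 CPM in Apln-positive barcodes, against 28.8 and 44.9 CPM in Apln-negative barcodes, and was called lower in the common depth range. Angpt2, a Tek ligand released by tip cells, was not measured, with 10.9 and 12.0 CPM in Apln-positive barcodes, against 9.83 and 3.45 CPM in Apln-negative barcodes. Placental growth factor (Pgf) had 13.3 and 12.9 CPM in Apln-positive barcodes, against 6.56 and 7.77 CPM in Apln-negative barcodes, and was not measured either. Vegfb was below the measured level, with a ratio of 1.19 (0.792 to 1.81). Angptl2 was too, with 24 counts in Apln-positive and 61 counts in Apln-negative barcodes. Angpt1, Vegfd and Apela, the other ligand of Aplnr, had at most 8 counts in either group.

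Several genes of growth and signalling outside the tip cell list were among the highest ratios. Odc1, the rate-limiting enzyme of polyamine synthesis, lies on chromosome 12, 17544794 to 17551505 on the + strand. It had 304 and 256 CPM in Apln-positive barcodes, against 138 and 128 CPM in Apln-negative barcodes. Both Apln-positive values lay above both Apln-negative values, with a ratio of 2.098 (1.86 to 2.37), and 2.40 and 2.38 in the comparisons matched for depth.

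Kit, the receptor of stem cell factor, had 64.8 and 56.3 CPM in Apln-positive barcodes, against 38.0 and 14.7 CPM in Apln-negative barcodes, a ratio of 2.17 (1.67 to 2.84). Pde4b, a phosphodiesterase that breaks down cyclic AMP, had 115 and 113 CPM in Apln-positive barcodes, against 52.4 and 65.6 CPM in Apln-negative barcodes, a ratio of 1.97 (1.64 to 2.37). Kit and Pde4b were called higher in all 3 comparisons. Meox1, a homeobox factor, was the 1 higher gene among 28 measured endothelial transcription factors, against 0.655% of all measured genes. It had 180 and 158 CPM in Apln-positive barcodes, against 89.8 and 94.1 CPM in Apln-negative barcodes, a ratio of 1.85 (1.596 to 2.14). In the common depth range its ratio was 1.59 and it was not called there.

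Other genes among the 15 highest ratios were Mpp6, a membrane scaffold protein (2.08), Kcng2, a modifier subunit of potassium channels (1.83), Tmem201, of the inner nuclear membrane (1.88), and Fos, an immediate early transcription factor (2.14). Mpp6 and Tmem201 were not called in the common depth range. Fos was called in neither comparison matched for depth, and 29.3% of its counts in Apln-positive and 36.6% in Apln-negative barcodes came from 3 barcodes. Fxyd6, a regulator of the sodium pump, and Crmp1, a cytoskeletal regulator known from neurons, were called higher in all 3 comparisons, with ratios of 1.78 (1.58 to 2.01) and 2.22 (1.601 to 3.13). Both were picked out after their values had been seen.

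**Figure D2:**
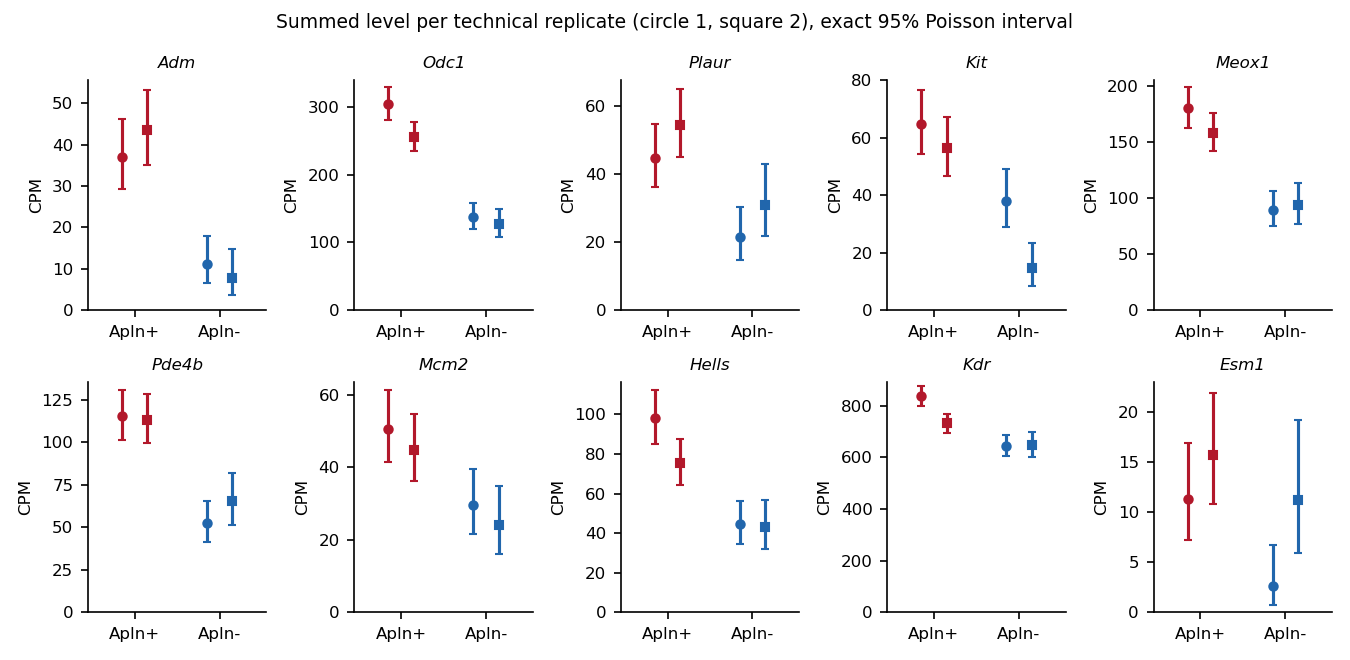
Levels in CPM of summed counts in Apln-positive (left, red) and Apln-negative (right, blue) endothelium, with a circle for technical replicate 1, a square for replicate 2 and exact 95% Poisson intervals. The first 8 genes were called higher, and their Apln-positive values lie above the Apln-negative ones. Kdr differed by a ratio of 1.21, and Esm1 was at or under 15.7 CPM in every group.

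Genes of DNA replication were prominent among the genes higher in Apln-positive endothelium. Over all 5956 measured genes, 0.655% were called higher and 3073 ratios were above 1. Of 23 measured S phase genes, 5 were called higher and 0 lower, and all 23 ratios were above 1. Their median log2 ratio was 0.51, and 0.63 and 0.65 in the comparisons matched for depth. The list summed to 1604 and 1632 CPM in Apln-positive barcodes, against 1107 and 1160 CPM in Apln-negative barcodes.

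Hells, a chromatin remodeller of dividing cells, had 98.0 and 75.3 CPM in Apln-positive barcodes, against 44.6 and 43.2 CPM in Apln-negative barcodes, a ratio of 1.97 (1.59 to 2.44). Mcm2, a subunit of the replicative helicase, had 50.6 and 44.8 CPM in Apln-positive barcodes, against 29.5 and 24.2 CPM in Apln-negative barcodes, a ratio of 1.75 (1.34 to 2.32). The remaining 3 were the helicase subunit Mcm6 (1.85), the histone chaperone subunit Chaf1b (1.67) and the replication fork protein Tipin (1.54). Lig1, which joins the fragments of the lagging strand (1.88), Fam111a, a protease at replication forks (1.75), Cenps, a centromere protein (1.87), and Ncapg2, a condensin subunit (1.74), were among the 15 highest ratios as well. Chaf1a, the partner of Chaf1b, had a ratio of 1.85 (1.35 to 2.56). Chaf1a and Tipin were picked out after their values had been seen.

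The mitotic list held few calls. Of 34 measured G2M genes, 0 were called in either direction as counted or with weighting to depth, and the mitotic genes Kif23 and Gas2l3 were called higher in the common depth range. The median log2 ratio was 0.21, 0.06 with weighting to depth and 0.26 in the common depth range. The list summed to 3167 and 3754 CPM in Apln-positive barcodes, against 3244 and 2522 CPM in Apln-negative barcodes, so the replicate sums overlapped. Top2a, a mitotic topoisomerase picked out after its value had been seen, had a ratio of 1.35, and the proliferation marker Mki67 had 1.20.

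To set the groups at 1 depth, each barcode was thinned to 2000 counts, which left out 0 Apln-positive and 4 Apln-negative barcodes. At least 3 S phase counts then remained in 54.4% of Apln-positive barcodes (47.8 to 60.8), against 29.8% of Apln-negative barcodes (24.8 to 35.0). Before thinning the shares were 94.1% and 61.5%. For the G2M list the thinned shares were 59.0% (52.5 to 65.3) in Apln-positive and 36.8% (31.6 to 42.3) in Apln-negative barcodes. Before thinning they were 89.1% in Apln-positive and 57.6% in Apln-negative barcodes.

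Barcodes with at least 0.3% of counts from cell cycle genes made up 61.9% of Apln-positive and 33.9% of Apln-negative barcodes. Without them the ratio was 3.58 for Adm, 2.41 for Odc1, 2.67 for Kit, 2.17 for Meox1 and 2.24 for Hells, while Mcm2 stood at 0.981. Hells and Mcm2 are members of the lists that chose these barcodes, so their values there are set in part by the choice. That comparison was added after the data had been seen.

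Part of the arterial genes were lower in Apln-positive endothelium. Of 12 measured, 6 were called lower, against 1.38% of all measured genes, and 0 higher. The median log2 ratio of the 12 was -0.93. For the same 12 genes it was -1.80 with weighting to depth and -0.91 in the common depth range. Of the genes measured in those comparisons, 6 of 12 were lower with weighting and 8 of 14 in the range. Hey1, a target of Notch signalling on chromosome 3, 8663359 to 8667256 on the - strand, had 23.7 and 22.2 CPM in Apln-positive barcodes, against 66.2 and 80.3 CPM in Apln-negative barcodes. Both summed Apln-positive values lay below both Apln-negative ones, and the ratio was 0.317 (0.246 to 0.406).

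Cxcl12, a chemokine that arterial cells make and that guides vessel growth, lies on chromosome 6, 117168535 to 117181367 on the + strand. It had 107 and 55.9 CPM in Apln-positive barcodes, against 287 and 224 CPM in Apln-negative barcodes, a ratio of 0.313 (0.275 to 0.357). In Apln-positive barcodes, 62.4% of its counts came from 3 barcodes, against 25.7% in Apln-negative barcodes. Gja4, a gap junction protein of arterial endothelium, had 36.9 and 19.9 CPM in Apln-positive barcodes, against 70.1 and 126 CPM in Apln-negative barcodes. Hey1, Cxcl12 and Gja4 were called lower in all 3 comparisons.

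The Notch ligand Jag1 had a ratio of 0.445 (0.328 to 0.600). Fbln5, an elastic fibre protein, had 0.216 (0.164 to 0.280), and Ltbp4, a latent TGF-beta binder, 0.624 (0.558 to 0.699). Gja4 and Ltbp4 were picked out after their values had been seen. Barcodes with 2 or more counts over Gja4, Gja5, Bmx, Gkn3 and Stmn2 were 11.3% of the Apln-positive and 19.1% of the Apln-negative group. Without those barcodes the ratio was 0.332 for Hey1, 0.212 for Cxcl12 and 0.558 for Jag1, while Fbln5 stood at 1.03.

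Over the whole Notch list of 10 measured genes, 2 were lower and 0 higher, against 1.38% and 0.655% of all measured genes. The 2 were Hey1 and Jag1, already counted among the lower arterial genes, and the median log2 ratio of the list was -0.13. The tip cell Notch ligand Dll4 had 61.5 and 61.9 CPM in Apln-positive barcodes, against 57.0 and 63.0 CPM in Apln-negative barcodes, a ratio of 1.04 (0.847 to 1.27). The receptors Notch1 and Notch4 had ratios of 0.897 and 0.909. These 3 genes were picked out after their values had been seen.

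Some capillary genes were lower as well. Of 18 measured genes of capillary lipid and fluid transport, 3 were called lower, against 1.38% of all measured genes, and 0 higher. The median log2 ratio was -0.14, or 0.09 with weighting to depth. In the common depth range 0 of the 18 were called. Car4, a carbonic anhydrase on the surface of heart capillaries, had 148 and 144 CPM in Apln-positive barcodes, against 267 and 306 CPM in Apln-negative barcodes. Its ratio was 0.514 (0.461 to 0.572), and 0.642 and 0.569 in the comparisons matched for depth, where it was not called. The glycerol channel Aqp7 had a ratio of 0.481 (0.407 to 0.569) and the lipid transfer protein Pltp 0.504 (0.382 to 0.663).

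**Figure D3:**
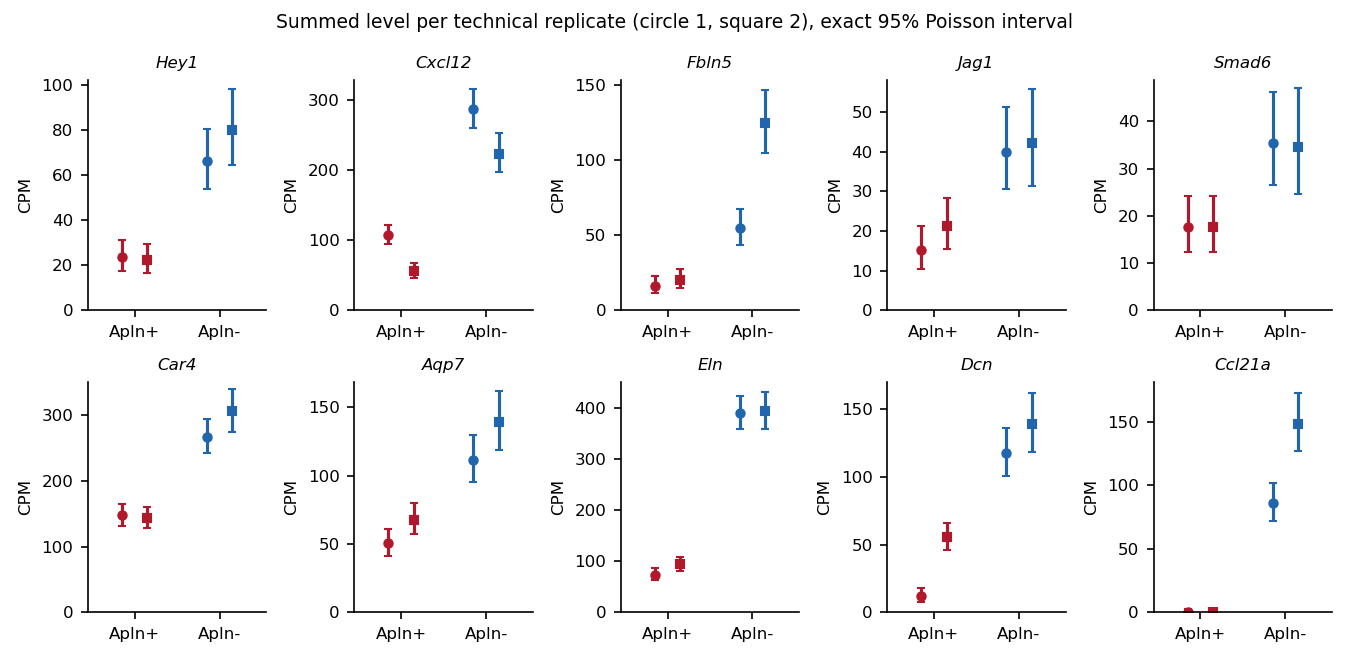
Levels in CPM of summed counts in Apln-positive (left, red) and Apln-negative (right, blue) endothelium, with a circle for technical replicate 1, a square for replicate 2 and exact 95% Poisson intervals. All 10 genes were called lower, with ratios such as 0.317 for Hey1 and 0.514 for Car4. In Eln, Dcn and Ccl21a a few barcodes carried many of the Apln-negative counts.

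Against 1.38% of all measured genes, 3 of 15 measured genes in the TGF-beta and BMP list were lower and 0 higher. They were the receptor Acvrl1 (0.511, interval 0.398 to 0.656), the inhibitory Smad6 (0.501, interval 0.365 to 0.685) and Id2, a target of BMP signals (0.591, interval 0.499 to 0.699). With weighting to depth, Acvrl1 and Smad6 were lower and the receptor Tgfbr3 (1.67) and the signal transducer Smad1 (1.59) were called higher, and in the common depth range Smad6 and Id1 were lower. Smad6 had 17.5 and 17.6 CPM in Apln-positive barcodes, against 35.4 and 34.5 CPM in Apln-negative barcodes, and was the 1 of the 3 called in all 3 comparisons. Among transcription factors Tbx3 was lower (0.586, interval 0.476 to 0.720), and among flow and vasoactive genes the anticoagulant receptor Thbd was lower (0.611, interval 0.518 to 0.720).

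Genes of the hypoxia response did not move together. Of 13 measured, 1 was higher and 2 were lower, against 0.655% and 1.38% of all measured genes. Adm was higher, while Ddit4, an inhibitor of mTOR (0.444, interval 0.339 to 0.578), and Bnip3, a mitophagy receptor (0.566, interval 0.422 to 0.758), were lower. With weighting to depth Adm and Egln1 were higher and Ddit4 lower. In the common depth range Adm and Ankrd37 were higher, and Bnip3 and Ddit4 lower. The median log2 ratio was 0.11, or -0.02 with weighting to depth and 0.06 in the common depth range. Ldha, picked out after its value had been seen, had a ratio of 0.967 (0.899 to 1.04). Of 11 measured glycolysis genes, Ldhb was lower (0.567) and 0 were higher, with a median log2 ratio of 0.00.

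In the remaining lists few genes were called. Over all measured genes, 0.655% were higher and 1.38% lower. Fn1, the matrix protein fibronectin, was the 1 lower gene of 20 of basement membrane and collagen processing (0.559), S100a6 the 1 of 30 cytoskeletal genes (0.509) and the tetraspanin Cd63 the 1 of 16 adhesion genes (0.563). Among 16 IGF and growth genes, Odc1 was higher, and the IGF-binding Igfbp5 (0.486) and the EGF family ligand Hbegf (0.536) were lower. Apoe was the 1 lower gene of 7 venous genes (0.451), and 38.0% of its Apln-negative counts came from 3 barcodes. Fos was the 1 higher gene of 9 immediate early genes, and Cxcl12 the 1 lower of 14 guidance genes. Xist had 1666 and 1681 CPM in Apln-positive barcodes, against 1592 and 1488 CPM in Apln-negative barcodes, and 4 Y-linked genes had 0 counts in both groups.

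**Figure D4:**
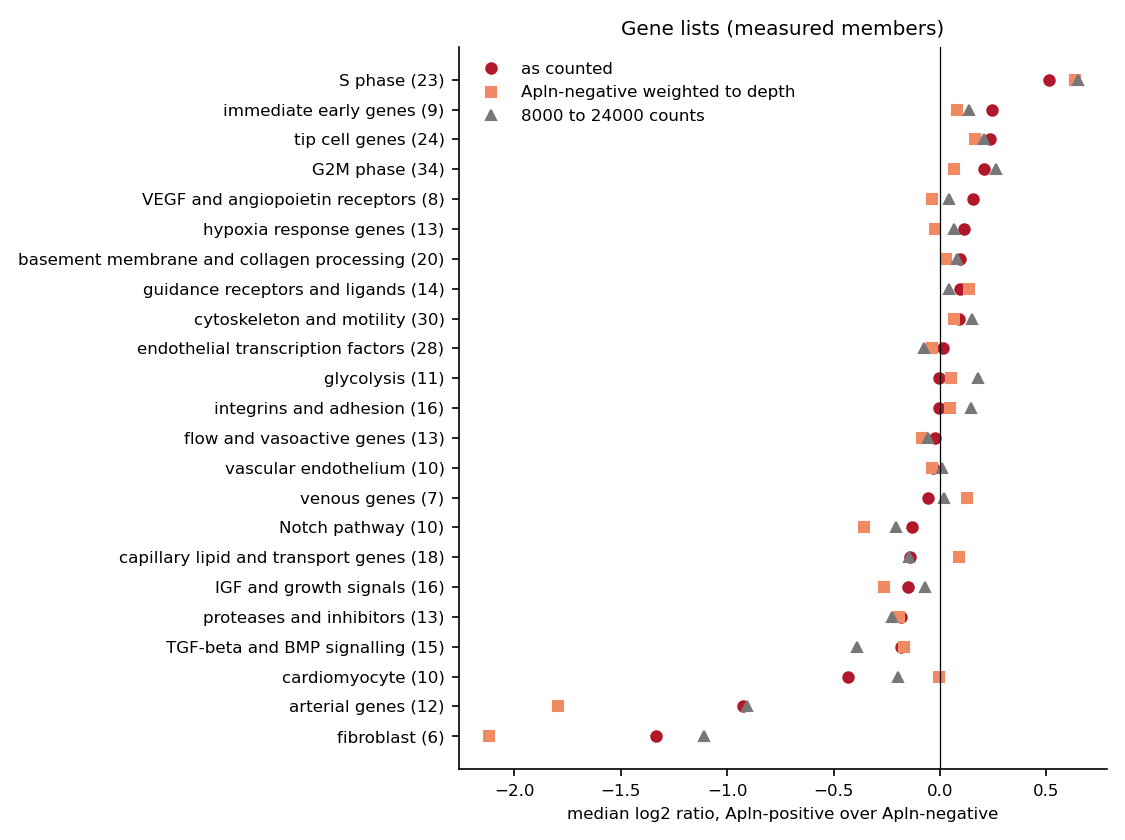
Median log2 ratio of Apln-positive over Apln-negative endothelium for the measured members of gene lists (number in brackets), as counted, with Apln-negative barcodes weighted to depth, and in barcodes of 8000 to 24000 counts. Lists with few measured members, such as the smooth muscle, pericyte and lymphatic lists, are not drawn. Among the lists drawn, S phase genes lie highest (0.51, 0.63 and 0.65), and fibroblast and arterial genes lie lowest. The tip cell list lies at 0.24, 0.16 and 0.20.

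Levels were also followed across the Apln count of a barcode. From 0 to 1, 2, 3 or 4, and 5 or more Apln counts, with 330, 121, 76, 73 and 90 barcodes, Adm was at 9.69, 28.8, 31.7, 38.7 and 45.2 CPM. Odc1 was at 133, 204, 250, 267 and 302 CPM over the same classes, and Kdr at 646, 727, 713, 769 and 826 CPM. In these values, pooled over the replicates, Adm and Odc1 were higher in each next class, and Kdr in all but 1 step. By replicate the climb was not unbroken. In replicate 1, Adm and Kdr rose at each step, but Odc1 was lower at 3 or 4 than at 2 Apln counts. In replicate 2, Adm, Odc1 and Kdr were each lower at 2 Apln counts than at 1. Median depth rose along the same classes, at 6125.0, 8539.0, 11485.0, 14303.0 and 20182.0 counts.

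With the replicates pooled, other higher genes peaked at 3 or 4 Apln counts. Plaur was at 25.7, 48.1, 49.6, 56.4 and 46.1 CPM, Meox1 at 91.6, 128, 150, 193 and 165 CPM, and Hells at 44.0, 62.8, 71.4, 101 and 85.5 CPM. The S phase list summed to 1130, 1243, 1510, 1778 and 1579 CPM. By replicate, Meox1 peaked at 3 or 4 Apln counts in both. Plaur peaked there in replicate 1, but at 2 Apln counts in replicate 2 (59.2 against 57.4 CPM). The S phase list was highest at 5 or more in replicate 1 (1701 CPM). In replicate 2 it was highest at 3 or 4 (1940 CPM).

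On the lower side, Hey1 was at 72.3, 51.7, 28.8, 34.5 and 13.5 CPM over these classes and Car4 at 284, 213, 167, 152 and 132 CPM. Cxcl12 was at 260, 162, 83.3, 147 and 42.8 CPM. Car4 was lower in each next class, also within each replicate. Hey1 and Cxcl12 stood higher at 3 or 4 than at 2 Apln counts, but each in 1 replicate only. Over that step Hey1 went from 28.7 to 44.5 CPM in replicate 1 and from 28.8 to 25.5 CPM in replicate 2. Cxcl12 went from 177 to 155 CPM in replicate 1 and from 25.6 to 140 CPM in replicate 2. The 76 barcodes just inside the threshold, with 2 Apln counts, and the 121 just outside, with 1, were close for Adm (31.7 and 28.8 CPM). They were farther apart for Hey1 (28.8 and 51.7 CPM). The Hey1 values were 28.7 and 69.1 CPM in replicate 1, and 28.8 and 32.6 CPM in replicate 2. Esm1 was at 6.94 CPM just inside and 5.91 CPM just outside, and at 16.3 CPM with 5 or more Apln counts.

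**Figure D5:**
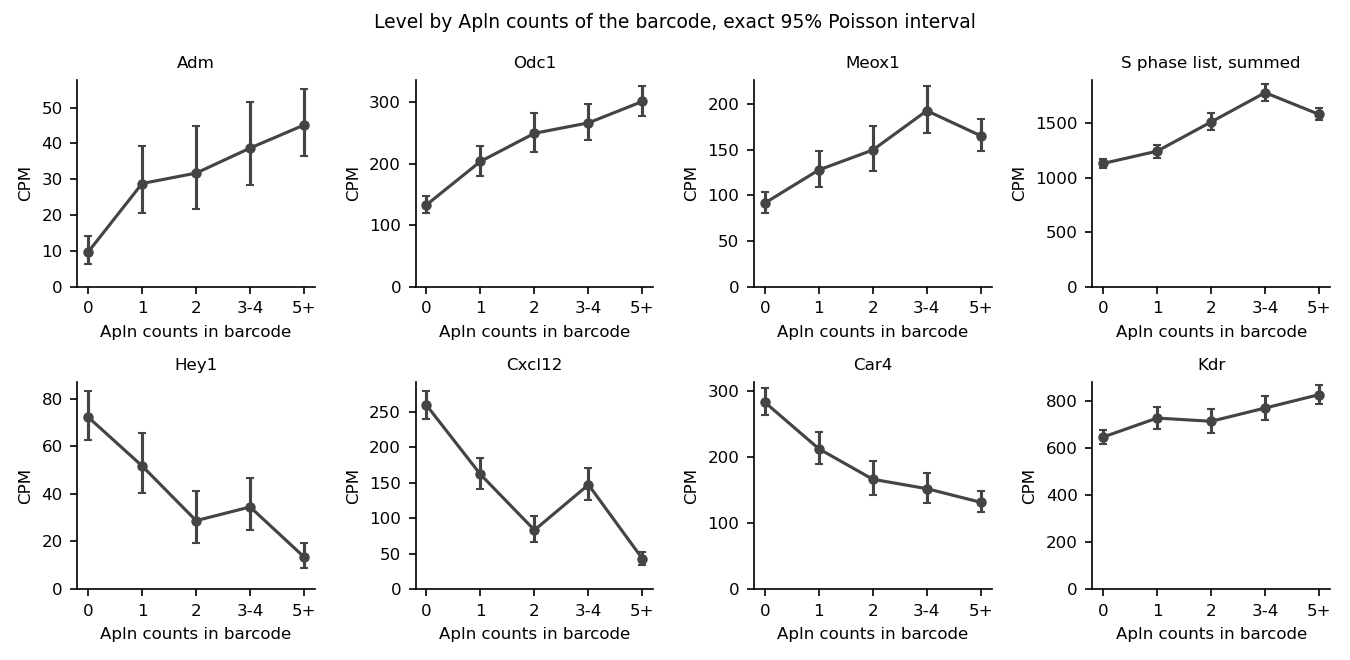
Levels in CPM of summed counts, over both technical replicates, by the number of Apln counts in a barcode, with exact 95% Poisson intervals. With the replicates pooled, Adm and Odc1 climb over the classes, to 45.2 and 302 CPM, and Car4 descends to 132 CPM. Hey1 is at 34.5 CPM with 3 or 4 and at 28.8 CPM with 2 Apln counts, and lowest at 13.5 CPM with 5 or more. In these pooled values Meox1 and the S phase list peak at 3 or 4. Kdr runs between 646 and 826 CPM.

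Summed markers of several other cell types were at a lower level in the Apln-positive group. All 6 measured fibroblast markers were called lower, against 1.38% of all measured genes. The list of 8 summed to 174 and 380 CPM in Apln-positive barcodes, against 726 and 751 CPM in Apln-negative barcodes. With weighting to depth 5 of 5 measured were lower, and in the common depth range 1 of 5, Postn. Sums over the smooth muscle list had a ratio of 0.358, the macrophage list 0.348, the pericyte list 0.592, the endocardial list 0.735 and the cardiomyocyte list 0.749. The epicardial list had 1.14, the platelet list 0.681 and the erythroid list 0.723. The vascular endothelial list had a ratio of 0.993. The rule's cap of 2 counts of endocardial genes is stricter per count in deeper barcodes. The endocardial ratio may therefore be set in part by the choice of barcodes. The part of these markers in the other results was measured only by leaving out barcodes, as given next, and not for endocardial, epicardial, platelet or erythroid markers.

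Several lower genes rested on few barcodes. Ccl21a, a lymphatic chemokine with near-identical copies in the mouse genome, had 1 count in Apln-positive and 303 counts in Apln-negative barcodes, and 98.0% of the 303 came from 3 barcodes. The lymphatic markers Prox1 and Lyve1 had 13 and 2 counts in Apln-positive barcodes, against 49 and 68 counts in Apln-negative barcodes. The 6 lymphatic markers summed to a ratio of 0.0312. At least 3 lymphatic marker counts stood in 1 Apln-positive and 9 Apln-negative barcodes. In Apln-negative barcodes, 3 barcodes carried 76.0% of the counts of elastin (Eln, ratio 0.215) and 76.3% of those of the matrix Gla protein Mgp (0.161).

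The extracellular matrix genes among the 15 lowest ratios were Fbln5, Mfap2 (0.296) and Mfap5 (0.295) of elastic fibres, and Lum (0.329), Dcn (0.269) and Aspn (0.387), proteoglycans of fibroblasts. The growth factors Mdk (0.356) and Ptn (0.358) and the nitric oxide receptor subunit Gucy1a1 (0.353) were also among them. The fibroblast markers Postn (0.384) and Col1a1 (0.410) were lower too. Among the 15 lowest ratios, all genes but Ccl21a, Hey1, Cxcl12 and Aspn had a higher level in endocardial than in Apln-negative barcodes. In CPM, Eln was at 1566 against 391, Mgp at 1178 against 171, Apoe at 1270 against 132 and Mdk at 570 against 61.1. Hey1 was at 18.3 against 72.3 CPM and Cxcl12 at 8.76 against 260 CPM. Whether endocardial cells among the barcodes took part in the lower ratios was not tested. Barcodes with at least 0.5% of counts from markers of cardiomyocytes, fibroblasts, pericytes, smooth muscle and macrophages were 5.02% of the Apln-positive and 16.97% of the Apln-negative group.

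Without those barcodes 42 genes were higher and 45 lower. The ratio was then 3.84 for Adm, 1.97 for Odc1, 0.338 for Hey1, 0.448 for Cxcl12 and 0.472 for Car4. It was 1.02 for Eln, 1.92 for Gucy1a1, 3.24 for Aspn, 1.15 for Ptn, 0.993 for Apoe and 0.877 for Lum. Adm, Odc1, Hey1, Cxcl12 and Car4, which are not in those marker lists, kept their direction, and Gucy1a1, Aspn and Ptn, also outside them, did not. Eln and Lum are themselves markers in the lists that chose these barcodes, so their values there are set in part by the choice. This comparison was added after the data had been seen.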

How the data were processed

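Each deposited matrix held integer counts, not normalised, made by the authors with Cell Ranger 2.1.0 on mm10 per the submitters' processing notes. Whether a count is a unique molecule or a read is not stated, so they are called counts. The records of both replicates name the same internal library, while the barcodes of the second matrix carry another name. Each matrix was used under the record it was deposited with.

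Symbols and coordinates came from GENCODE vM21 on GRCm38, and 27645 of 27999 features had a symbol. Promoter sequences came from RefSeq. Counts were summed per group and technical replicate and scaled to CPM with Python 3.11.15, numpy 2.4.6, scipy 1.17.1 and pandas 2.3.3, and plots used matplotlib 3.10.9. No doublet caller was run.

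With 1 biological sample there are no p-values, and intervals (Poisson, and conditional binomial for ratios) cover counting error only. Genes named are the supplied markers, the 15 highest and 15 lowest ratios by the replicate nearer to 1, up to 4 called members per list and direction, the vessel growth receptors and ligands and the sex-linked genes. The members and gene lists were chosen with earlier results of these data known.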

Additional observations from a re-analysis of the deposited data

How the results depend on the processing

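Against 39 higher and 82 lower genes as counted, weighting to depth gave 86 higher, the common depth range 75, thinning 203 and 187 lower, a mean over barcodes 71 higher, and a threshold of 1 Apln count 53 lower. A 5 CPM filter gave 139 and 274, no filter 591 and 1008, and a 2-fold size 2 and 20. Leaving out barcodes with 0.3% cell cycle counts gave 71 higher, and leaving out those with 0.5% counts of other cell types gave 45 lower. With 1 replicate left out, 184 to 231 genes were higher and 236 to 306 lower, since only 1 replicate then had to pass. The Apln-positive share was 52.2% at 1 or more and 23.6% at 3 or more Apln counts, 47.5% in the common depth range and 25.2% without the 0.3% cell cycle barcodes, and it lay between 32.0% and 37.4% with 1 replicate left out.

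Leaving out barcodes with 3 or more cell cycle counts kept 5 Apln-positive and 67 Apln-negative barcodes, and leaving out those with 5 or more counts of other cell types kept 6 and 32. These gave 451 higher and 689 lower genes with a share of 6.10%, and 590 and 538 with a share of 14.6%. Without cell cycle barcodes the ratio was 0 for Cenps, Chaf1b, Kcng2, Kit, Lig1, Mcm2 and Ncapg2, 1.36 for Acvrl1, 1.33 for Apoe, 9.96 for Gucy1a1 and 2.49 for Lum. Without barcodes of other cell types it was 0 for Adm and Ncapg2, 0.504 for Fam111a, 1.41 for Acvrl1, 4.70 for Apoe, 1.09 for Aqp7, 1.76 for Mfap5 and Mgp, 1.18 for Pltp, 2.35 for Tbx3 and 1.96 for Thbd. With so few Apln-positive barcodes these values rest on very few counts.

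The other reversals were Eln (1.81 without arterial barcodes, 1.23 in the common depth range, 1.02 without 0.5% of other cell types), Fbln5 (1.03 without arterial barcodes), Mcm2 (0.981 without 0.3% cell cycle counts), and Aspn (3.24), Gucy1a1 (1.92) and Ptn (1.15) without 0.5% of other cell types. Their cause was not tested. Of 738 ratios of 44 called genes under the alternatives, 708 kept their direction and 30 did not. Of the 708, 550 lay within the counting interval of the main ratio and 158 outside it. The genes were chosen by their ratios in both replicates, and many alternatives reuse most of the same barcodes. A kept direction was therefore largely set in advance. No paired analysis was possible because no model was fitted to the 1 biological sample, and the ratios already compare both groups within each technical replicate.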
